A study of Mus musculus with 15 samples.

Results

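Mature XCR1+ dendritic cells of the mouse thymus were compared with mature XCR1+ dendritic cells of the spleen taken 18 h after an injection of polyI:C. The members were chosen by tissue, CCR7 gate and treatment, as the labels give them: 3 arrays of CCR7+ cells from the thymus of untreated mice and 3 arrays of CCR7+ cells from the spleen of mice given 10 µg polyI:C intraperitoneally, 6 of the 15 arrays of the series. The other 9 arrays hold CCR7- cells of thymus, CCR7- cells of spleen and CCR7+ cells of spleen, all from untreated mice, 3 arrays each, and they are used below as references. All cells were sorted as CD11c+ CD317- CD172a-. The CCR7+ groups were also CD117- and the CCR7- groups CD117+. XCR1 stands in the sample names and not among these gates. Strain, age and sex are not given in the labels used here, and the labels do not say whether the replicates of a group came from separate mice or sorts, so the p-values measure only the spread between these samples. Each array was made from 40 ng of RNA with 2 rounds of amplification. The labels call the thymic cells matured by homeostasis and the polyI:C cells matured through a Toll-like receptor (TLR), and the comparison sets these kinds of maturation side by side. Tissue and treatment change together in it, and their parts cannot be told apart. The names of all splenic samples, untreated ones included, also carry the tag LT_SetA, and those of thymic samples do not. The names do not say what the tag marks. Whatever it marks changes together with tissue, here and between the immature cells, and cannot be told apart from it.

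XCR1+ dendritic cells, also called cDC1, take up material from dying cells and present it on MHC class I. When they mature they gain CCR7, the chemokine receptor that leads dendritic cells to T cells, and lose the ability to take up new antigen. In the thymus mature dendritic cells present self antigen to developing T cells. PolyI:C is a synthetic double-stranded RNA that is sensed by TLR3 in the endosome and by the helicases RIG-I and MDA5 in the cytosol, and this sensing leads to the production of type I interferon. Interferon in turn acts through the receptor chains Ifnar1 and Ifnar2 on genes whose promoters carry the interferon-stimulated response element.

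Values are the deposited log2 RMA signals, so a difference of 1 is a 2-fold difference. Differences are thymus CCR7+ minus polyI:C spleen CCR7+, with their standard errors, and a gene is called higher or lower where its Benjamini-Hochberg adjusted p from limma is under 0.05. Medians of the 15 arrays ran from 4.86 to 5.0, and arrays of a group correlated with each other at 0.962 to 0.99. RMA gives no detection calls, and values at or near 4.39, the level used as the filter, cannot be told from background. Where a gene had several probe sets, the brightest stands for it. The gates of the compared cells were the same, and the transcripts of the gated proteins were mostly level. Ccr7 averaged 13.03 in thymus and 12.87 after polyI:C (difference 0.16 ± 0.34, adjusted p 0.753). Kit, which encodes CD117, differed by -0.17 ± 0.34 (adjusted p 0.74), Itgax, which encodes CD11c, by 0.39 ± 0.34 (adjusted p 0.433) and Sirpa, which encodes CD172a, by -0.46 ± 0.20 (adjusted p 0.113). Bst2, which encodes CD317 and is itself an interferon-induced gene, was lower in thymus (-1.05 ± 0.16, adjusted p 0.000375).

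The mature cells differed widely. Of 13629 genes tested, 2279 were higher in thymus (16.7%) and 1009 were lower (7.4%). At least 2-fold apart were 1090 of the higher genes (8% of all tested) and 404 of the lower genes (2.96%). The lower genes were fewer but reached similar sizes, with 36 lower and 34 higher by at least 8-fold. The 3 arrays of thymus all lay above the 3 of polyI:C spleen for 3290 genes (24.1%) and all below for 2454 (18%). For a single gene taken alone, the smallest two-sided p of an exact permutation test at 3 against 3 is 0.1, so the calls rest on the spread pooled over genes and groups. The largest higher genes were Cdh2, Rag1, Zmynd15 and Ccl17, and the largest lower ones Ifit1bl1, Ifit3, Ifit2 and Dkk3.

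**Figure D1:**
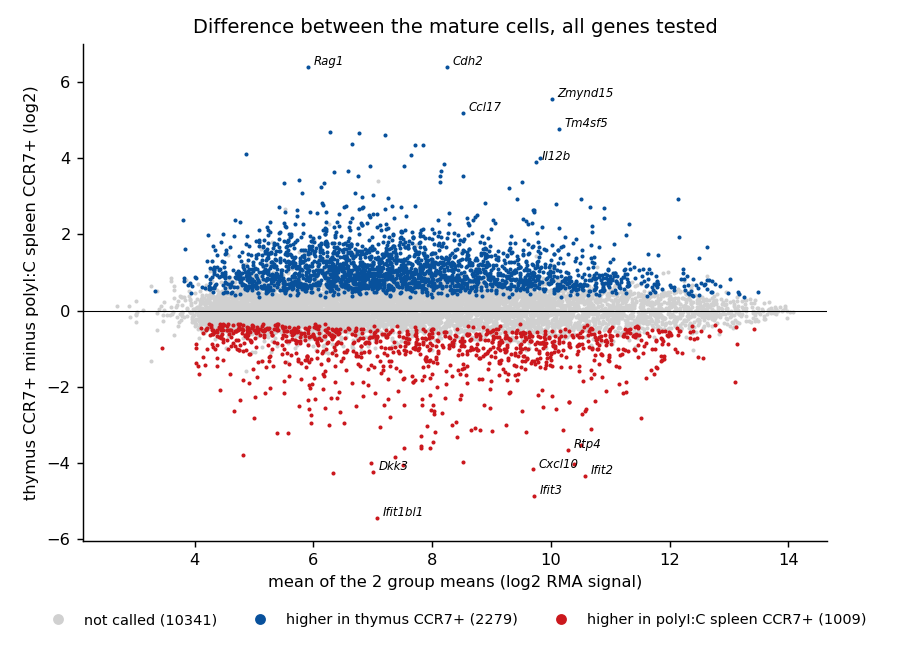
Difference between thymus CCR7+ and polyI:C spleen CCR7+ cells (vertical axis, log2) against the mean of their group means (horizontal axis, log2 RMA signal), 1 point for each of 13629 genes. Blue points are the 2279 genes called higher in thymus, red points the 1009 called lower and grey points those not called; Cdh2 and Rag1 stand at the top and Ifit1bl1 at the bottom.

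Cdh2 and Il12b, the genes fixed as markers of the comparison, were both high in mature thymic cells and near the immature level after polyI:C. Cdh2 encodes N-cadherin, a calcium-dependent adhesion molecule. It read 11.62, 11.35 and 11.41 in thymus CCR7+ cells and 5.23, 5.33 and 4.59 in polyI:C spleen CCR7+ cells. The groups were far apart, with a difference of 6.41 ± 0.79 (adjusted p 5.45e-05). Untreated spleen CCR7+ cells read 9.35, 9.45 and 9.80, between the other mature groups and nearer to thymus. Thymus CCR7- cells read 5.23, 5.36 and 4.88, so the high signal belonged to the CCR7+ fraction. Spleen CCR7- cells read 3.43, 8.28 and 5.04, and the second of these arrays stood far above the others. Both Cdh2 probe sets were higher in thymus, by 4.51 and 6.41.

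Il12b encodes the p40 subunit shared by interleukins 12 and 23. It read 11.77, 11.40 and 11.95 in thymus CCR7+ cells and 7.49, 8.04 and 7.89 after polyI:C. No array overlapped, and the difference was 3.90 ± 0.31 (adjusted p 1.21e-06), with its 2 probe sets at 3.90 and 4.43. Untreated spleen CCR7+ cells read 10.73, 10.80 and 11.09, close to thymus. The polyI:C group lay in the range of immature spleen cells, which read 6.83, 7.85 and 8.53. The partner subunits that make interleukin 12 (Il12a) and interleukin 23 (Il23a) were below the filter. Ebi3, a subunit of interleukin 27 and interleukin 35, was not called (0.24 ± 0.19, adjusted p 0.397), nor was Il6 (-0.01 ± 0.47, adjusted p 0.986) or Il15, which supports memory T cells and natural killer cells (-0.20 ± 0.16, adjusted p 0.399). Of 18 cytokine genes tested, 3 were higher in thymus (16.7%, the share over all genes) and 2 lower (11.1%, against 7.4%). Their median difference was 0.12 against -0.011 over all genes. With the replicate number as a block 6 were higher, and none was lower without the first or the third polyI:C array. Il33, an alarmin, was 1 of the 2 lower genes (-1.45 ± 0.16, adjusted p 2.12e-05), although its thymus arrays (3.50, 3.80 and 3.63) lay under the filter level. Without the first or the third polyI:C array it did not pass the filter. It was thus tested only with the help of the group where it was high, and the lower count rests in part on it.

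**Figure D2:**
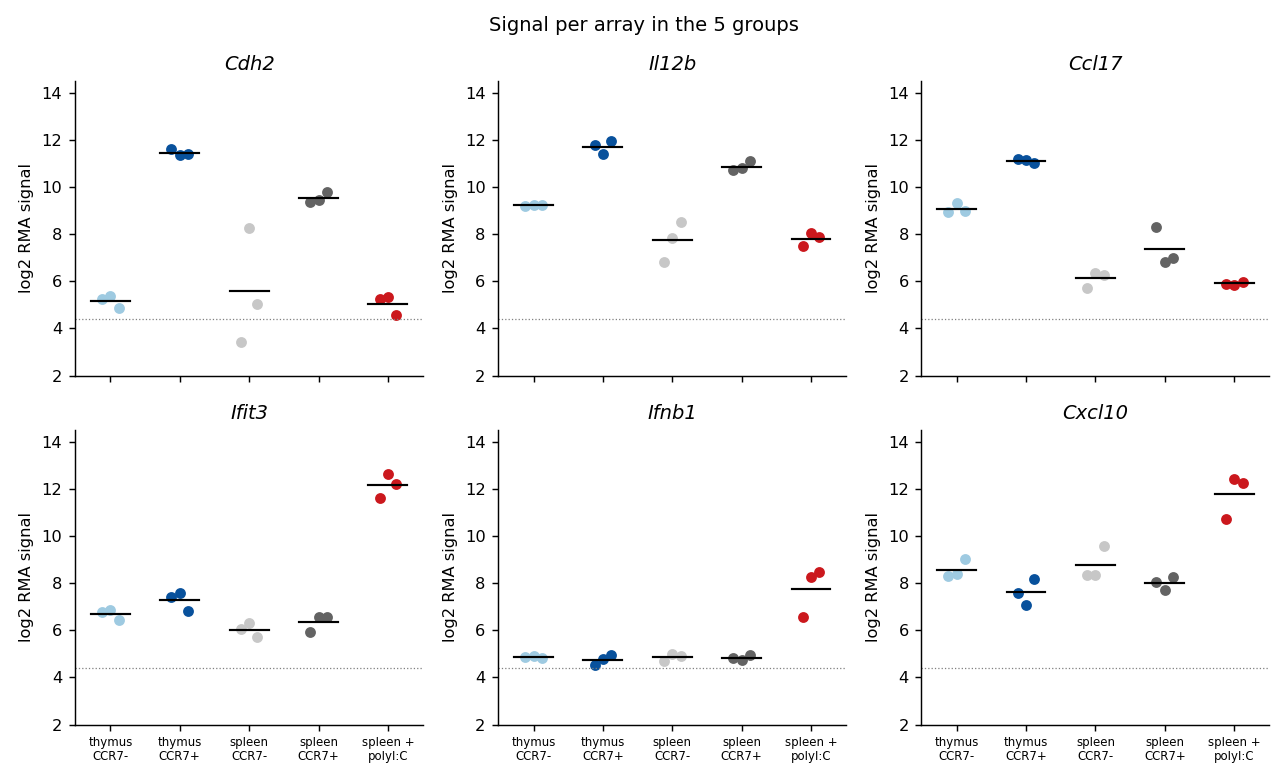
Log2 RMA signal of 6 genes in each array, with 3 points and a line at the mean for each of the 5 groups; the dotted line marks the filter level of 4.39. Cdh2, Il12b and Ccl17 are high in thymus CCR7+ and low in polyI:C spleen cells, and Ifit3, Ifnb1 and Cxcl10 are the reverse.

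Genes of the type I interferon response were lower in thymus almost throughout the list. Of 34 tested, 30 were lower (88.2%, against 7.4% of all genes), none was higher, and the median difference was -1.90. The arrays of the groups did not overlap, with thymus below, for 31 of the 34 (against 18% of all genes), and 29 had their highest group mean after polyI:C (against 27.9% of all genes). Ifit3, a member of the IFIT family that binds viral RNA, read 7.43, 7.60 and 6.81 in thymus CCR7+ cells and 11.61, 12.65 and 12.21 after polyI:C. All thymus arrays were below all polyI:C arrays, with a difference of -4.88 ± 0.28 (adjusted p 6.53e-08). Ifit1bl1, of the same family, showed the largest lower value of all genes. It read 4.28, 4.47 and 4.30 in thymus, at the filter level, and 9.14, 10.33 and 9.94 after polyI:C (difference -5.45 ± 0.27, adjusted p 1.79e-08). Ifit2 differed by -4.34 ± 0.25 and Ifit1 by -4.04 ± 0.26 (adjusted p 7.46e-08 and 1.56e-07). Rtp4 (-3.65), Ifitm3 (-3.53), which blocks virus entry at membranes, and Oasl2 (-3.13), of the oligoadenylate synthetase family, were also lower. Ifi35, Ifi27l2a, Eif2ak2 and Slfn5 were not called.

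By the median of the list the thymic cells were not at the floor, although Ifit1bl1 was at the filter level. Rsad2, which encodes the antiviral enzyme viperin, read 12.21, 11.96 and 12.32 in thymus CCR7+ cells, 9.73, 9.86 and 10.26 in untreated spleen CCR7+ cells and 13.96, 14.15 and 13.98 after polyI:C. The polyI:C arrays lay close to the top of the scale, where arrays reached 14.24 to 14.40 at most, and the difference of -1.87 ± 0.21 (adjusted p 2.55e-05) was smaller than those of the Ifit genes. The median of the list's group means was 8.39 in thymus CCR7+ cells, 6.61 in untreated spleen CCR7+ cells and 11.08 after polyI:C. For 28 of the 34 genes all 3 thymus CCR7+ arrays lay above all 3 of untreated spleen CCR7+ cells, which was so for 16.5% of all genes tested. Immature cells showed a like order of tissues: 25 of the 34 genes were higher in thymus CCR7- than in untreated spleen CCR7- cells, with a median of 1.46 (over all genes, 8.16% were called there, 4.92% higher and 3.24% lower), and Ifitm3 was lower. Oas1a, a further oligoadenylate synthetase, was an example, at 10.93, 11.20 and 11.03 in immature thymic and 7.02, 7.12 and 6.64 in immature splenic cells. All 27 genes of the list that were called and at least 2-fold apart had untreated spleen CCR7+ cells nearer to thymus than to polyI:C spleen. These counts changed little with the processing, with 30 to 32 lower when any array was left out and 25 to 33 under the other settings apart from the test against a 2-fold change.

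**Figure D3:**
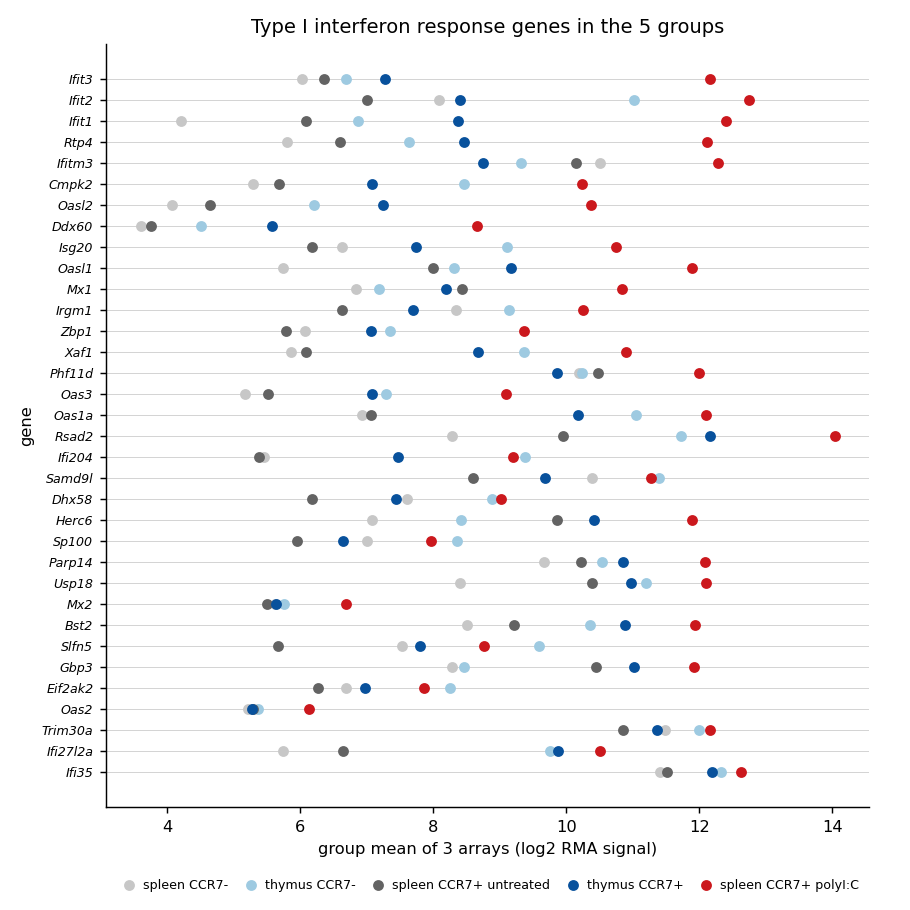
Group means (log2 RMA signal, 3 arrays each) of the 34 tested type I interferon response genes in the 5 groups, ordered by the difference between thymus CCR7+ and polyI:C spleen CCR7+ cells. Red points (polyI:C) stand furthest to the right for 29 genes, and the dark blue points of thymus CCR7+ cells lie to the right of the dark grey points of untreated spleen CCR7+ cells for 30.

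The interferon genes and the sensors of polyI:C belong to the same description. Ifnb1, which encodes interferon beta, read 6.58, 8.24 and 8.48 after polyI:C, with the first array lowest, and 4.55, 4.78 and 4.96 in thymus CCR7+ cells, about the level of the 3 other groups. It differed by -3.01 ± 0.35 (adjusted p 3.07e-05). Of 22 genes of interferon sensing and signalling, 9 were lower in thymus (40.9%, against 7.4% of all genes) and 2 higher (9.09%, against 16.7%). The median was -0.33. The cytosolic sensors were lower in thymus. Rigi, named Ddx58 on the array, differed by -2.49 ± 0.18 (adjusted p 4.05e-07) and Ifih1, which encodes MDA5, by -1.50 ± 0.17 (adjusted p 2.27e-05). Irf7, the factor that amplifies interferon production, read 8.56, 9.32 and 9.44 in thymus and 10.80, 11.75 and 11.98 after polyI:C (difference -2.41 ± 0.39, adjusted p 0.00053). Stat2 differed by -1.89 ± 0.26 (adjusted p 0.000156). The 2 higher genes, Ifnar2 and Jak1, rest on the choice of probe set or array: Ifnar2, at 0.77, turned to -1.07 with the probe set of largest variance, and Jak1, at 1.10, was no longer called without the second or the third thymus CCR7+ array or the first polyI:C array. The interferon-inducible GTPases, which act on the vacuoles of intracellular microbes, were lower for 8 of 10 (against 7.4% of all genes), none was higher, and the median was -1.99. Iigp1 read 5.42, 5.79 and 5.16 in thymus and 8.04, 10.12 and 9.76 after polyI:C (difference -3.85 ± 0.39, adjusted p 9.77e-06). Igtp and Irgm1 differed by -2.59 and -2.56.

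Since these genes differed in the same direction, their promoters were searched for the core of the interferon-stimulated response element, taken as GAAA, any 2 bases and GAAA again, on either strand. The search covered RefSeq windows of assembly GRCm38.p6 that run from 250 bases before to 50 bases after each gene's start, and 10990 of the 13629 tested genes had a window. The core was present in 3.44% of all 32851 windows, in 3.71% of tested genes, in 31 of 891 genes at least 2-fold higher in thymus (3.48%) and in 36 of 322 at least 2-fold lower (11.2%). Of the 24 type I interferon response genes with a window, 13 held it (54.2%). Only the first of these shares counts windows. The others count genes with a match in any of their windows. A broader NF-kB type motif, GGGA, any 4 bases and CC on either strand, counted whether or not it overlapped the first motif, was present in 29.9% of tested genes, 30.2% of the genes at least 2-fold higher and 36.3% of those at least 2-fold lower. A match describes the letters only. Of the 15 largest lower genes, Ifit1bl1, Ifit3, Cxcl10 and Ifit1 held the interferon core before their start. The stretches of these 4 are shown because they hold the core and belong to the 15 largest lower genes. Each is written on its gene's strand with the matched core in capitals.
Ifit1bl1, chr19:34602038-34602097, minus strand: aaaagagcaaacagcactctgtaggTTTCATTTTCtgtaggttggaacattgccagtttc
Ifit3, chr19:34583348-34583441, plus strand: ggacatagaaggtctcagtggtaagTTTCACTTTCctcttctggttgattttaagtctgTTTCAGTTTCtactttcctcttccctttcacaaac
Cxcl10, chr5:92349068-92349127, minus strand: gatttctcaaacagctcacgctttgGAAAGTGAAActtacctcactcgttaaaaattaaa
Ifit1, chr19:34640760-34640838, plus strand: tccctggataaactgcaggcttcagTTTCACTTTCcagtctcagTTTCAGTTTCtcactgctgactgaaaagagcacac
Ifit3 and Ifit1 hold the core at 2 places each. In these promoters the match nearest to the start lies 85 bases before it in Ifit1, 104 in Ifit1bl1, 122 in Ifit3 and 213 in Cxcl10. The windows of Ifit2, Spic, Pcp4, Sct, Ms4a4d, Il1rn and Slfn4 held no match, and Dkk3, Iigp1, Rtp4 and Apcdd1 were not searched.

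The chemokines split into those high in thymus and those high after polyI:C. Of 17 tested, 6 were higher (35.3%, against 16.7% of all genes) and 5 lower (29.4%, against 7.4%), with a median of -0.07. The higher side was led by Ccl17 and Ccl22, the ligands of CCR4, a receptor of regulatory T cells, Th2 cells and thymocytes. Ccl17 read 11.19, 11.16 and 11.01 in thymus CCR7+ cells and 5.91, 5.86 and 5.99 after polyI:C. The arrays were tight within each group, and the difference was 5.20 ± 0.30 (adjusted p 6.53e-08). Untreated spleen CCR7+ cells read 8.30, 6.81 and 7.01, nearer to the polyI:C cells, and Ccl17 was also higher in immature thymic than in immature splenic cells (2.96, adjusted p 1.48e-05). Ccl22 read 13.52, 13.62 and 13.68 in thymus and 10.59, 10.59 and 10.81 after polyI:C (difference 2.94 ± 0.33, adjusted p 2.48e-05). Here untreated spleen CCR7+ cells, at 12.10, 12.56 and 13.0, were nearer to thymus. Cxcl16, which binds CXCR6, was higher by 1.08 ± 0.23 (adjusted p 0.00321).

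The lower side held the ligands of CXCR3, the receptor of activated T cells and natural killer cells. Cxcl10 read 7.59, 7.07 and 8.17 in thymus CCR7+ cells and 10.72, 12.42 and 12.23 after polyI:C (difference -4.18 ± 0.44, adjusted p 1.34e-05). Cxcl11 differed by -2.50 ± 0.37 (adjusted p 0.000248). Cxcl9 followed another order among the groups. It read 8.02, 7.57 and 8.33 in thymus CCR7+ cells, 11.03, 10.96 and 10.65 in untreated spleen CCR7+ cells and 10.92, 11.38 and 11.24 after polyI:C, so mature thymic cells were low and the mature splenic groups were alike in level. The difference was -3.20 ± 0.19 (adjusted p 8.96e-08). Among chemokine and lipid-mediator receptors 2 of 22 were higher and 3 lower (9.09% and 13.6%, against 16.7% and 7.4% of all genes). The higher count was 1 without the first or second thymus CCR7+ array or the third polyI:C array, and the lower count 1 without the second or the third thymus CCR7+ array or the first polyI:C array. Ccr6, the receptor of CCL20, was higher in thymus by 1.91 ± 0.41 (adjusted p 0.00393), with the second thymus array highest (8.47, 9.93 and 8.30).

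Ligands seen by T cells differed in both directions. Of 32 genes of costimulation and checkpoint, 7 were higher in thymus (21.9%, against 16.7% of all genes) and 13 lower (40.6%, against 7.4%). The median was -0.43. The lower count fell to 8, 6 and 7 without the first or second thymus CCR7+ array or the second polyI:C array. Cd80, the ligand of CD28 and CTLA-4, read 9.54, 9.63 and 10.03 in thymus, 6.60, 7.52 and 7.44 in untreated spleen CCR7+ cells and 11.19, 11.03 and 11.37 after polyI:C. Thymus stood between the splenic groups, and the difference from polyI:C was -1.46 ± 0.23 (adjusted p 0.000439). The partner ligand Cd86 differed less (-0.54 ± 0.16, adjusted p 0.0279) and lost its call without the second or the third array of either group (adjusted p 0.0989 and 0.061 for the thymus arrays). Cd40 (0.28 ± 0.17, adjusted p 0.254) and Cd274, which encodes PD-L1 (-0.70 ± 0.31, adjusted p 0.118), were not called. Cd200, an inhibitory ligand for myeloid cells, and Pvr, the ligand of CD226 and TIGIT, were lower (-1.27 and -1.17, adjusted p 0.000576 and 0.00191).

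Notch ligands went opposite ways. Dll1 read 5.68, 5.18 and 5.24 in thymus and 6.93, 8.09 and 7.50 after polyI:C (difference -2.14 ± 0.25, adjusted p 3.15e-05). Only the polyI:C arrays stood above the other groups. Jag1 read 10.93, 10.73 and 10.86 in thymus, 10.70, 10.81 and 11.06 in untreated spleen CCR7+ cells and 8.26, 8.39 and 8.94 after polyI:C (difference 2.31 ± 0.48, adjusted p 0.00311). Its probe sets ran from 0.25 to 2.31. Members of the SLAM family, which bind their own kind or CD48 and CD244 on lymphocytes and dendritic cells, differed in both directions. Slamf1 read 8.64, 8.56 and 8.88 in thymus and 6.28, 5.50 and 6.07 after polyI:C (difference 2.75 ± 0.24, adjusted p 2.52e-06). Cd48 was higher by 2.92 ± 0.34 (adjusted p 3.51e-05). It stood near the immature level in thymus (10.91, 10.93 and 10.86) and was low in the polyI:C arrays (8.22, 8.77 and 6.93). Slamf6 was higher by 1.81 ± 0.25, but its probe sets ran from 0.14 to 1.81. Cd244a, a receptor of CD48, and Slamf8 were lower (-2.18 ± 0.59 and -1.79 ± 0.51, adjusted p 0.0153 and 0.019). Both lost their calls without the second thymus CCR7+ array or the first or second polyI:C array, and Slamf8 also without the first thymus CCR7+ array.

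Transcripts that mark XCR1+ dendritic cells were lower in mature thymic cells more often than higher. Of 27 tested, 10 were lower (37%, against 7.4% of all genes) and 2 higher (7.41%, against 16.7%), with a median of -0.52. The lower count was 6 without the second thymus CCR7+ array or the second polyI:C array, and the higher genes, Irf8 and Batf3, lost their calls in several such fits (none of the list was called higher without the second or the third thymus array or the second polyI:C array). Xcr1, the receptor of XCL1, read 4.85, 5.09 and 5.81 in thymus CCR7+ cells, 6.16, 9.0 and 8.93 in untreated spleen CCR7+ cells and 7.85, 7.75 and 7.01 after polyI:C. The first untreated spleen array was well below the others of its group. The difference of thymus from polyI:C was -2.29 ± 0.56 (adjusted p 0.00822), while immature cells of both tissues read 11.13 to 11.81. Cd8a, the CD8 alpha chain of these cells, differed by -2.64 ± 0.43 (adjusted p 0.000491), and was lower in immature thymic cells too (-2.11, adjusted p 0.00548). Cadm1, which binds CRTAM on T cells, read 8.99, 9.01 and 8.88 in thymus and 10.33, 10.31 and 10.06 after polyI:C (difference -1.27 ± 0.12, adjusted p 7.28e-06). Plpp1, a lipid phosphatase, was lower (-1.89 ± 0.18, adjusted p 4.53e-06). Mature thymic cells had the lowest mean of the 3 mature groups for 20 of the 27 genes (34.7% of all genes tested), and untreated spleen CCR7+ cells the highest for 22 (25.3%).

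Tlr3, the sensor of double-stranded RNA, was lower in thymus as well. It read 4.55, 4.78 and 4.20 in thymus CCR7+ cells, at the filter level, and 7.74, 7.37 and 5.95 after polyI:C, with the third array lowest (difference -2.51 ± 0.49, adjusted p 0.00187). Immature cells read 9.89 to 10.70 in thymus and 11.06 to 11.50 in spleen. Of 19 Toll-like receptors and adaptors 6 were lower (31.6%, against 7.4% of all genes), including Tlr2 (-0.87) and Myd88 (-0.77), and none was higher. In the list of dendritic cell maturation genes, 2 of 24 were higher (Ccl22 and Nudt17) and 4 lower (Cd80, Cd200, Tnfrsf4 and Cd86), with a median of -0.10. These shares were 8.33% and 16.7%, against 16.7% and 7.4% of all genes. Only 2 stayed lower without the second thymus CCR7+ array or the third polyI:C array.

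Among transcription factors of dendritic cells 5 of 28 were higher and 5 lower (17.9% each, against 16.7% and 7.4% of all genes). The median was -0.06. Fewer were higher without the second (1) or the third (2) thymus CCR7+ array or the first (3) or the third (2) polyI:C array. Leaving out any thymus CCR7+ array or the second or the third polyI:C array left 3 lower. Spib, Stat4 and Prdm1 kept their calls whichever array was left out. Spib, an ETS factor, read 8.41, 9.12 and 8.39 in thymus and 11.45, 11.85 and 12.04 after polyI:C (difference -3.14 ± 0.55, adjusted p 0.000862). Stat4, which carries the interleukin 12 signal, read 8.95, 9.75 and 9.58 in thymus, 5.44, 6.79 and 6.24 in untreated spleen CCR7+ cells and 10.80, 10.97 and 10.97 after polyI:C (difference -1.49 ± 0.37, adjusted p 0.0091). Thymus lay nearer to polyI:C than untreated spleen did. Prdm1, which encodes the repressor BLIMP-1, read 6.90, 6.93 and 6.63 in thymus and 4.27, 4.27 and 4.12 after polyI:C, near background (difference 2.60 ± 0.25, adjusted p 7.24e-06). Spic, an ETS factor known from red pulp macrophages, was among the largest lower genes. It read 5.34, 5.76 and 5.35 in thymus and 9.65, 9.73 and 9.22 after polyI:C (difference -4.05 ± 0.26, adjusted p 1.62e-07). Of the macrophage and monocyte markers tested with it, 4 of 16 were lower (25%, against 7.4% of all genes) and 3 higher (18.8%, against 16.7%). Lyz2, or lysozyme, was higher by 2.07 ± 0.28 (adjusted p 0.000129). The summed signal of that list ran from 11.94 to 12.45 in thymus CCR7+ arrays and from 11.66 to 12.20 after polyI:C, and its part in these values was not tested.

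Adhesion and axon guidance genes were higher in thymus more often than lower. Of 29 tested, 10 were higher (34.5%, against 16.7% of all genes) and 2 lower, with a median of 0.18. The count of higher genes was 7 to 11 when single arrays were left out. Cldn1, a tight junction claudin, read 9.70, 9.23 and 9.58 in thymus CCR7+ cells and 4.85, 5.40 and 4.44 after polyI:C (difference 4.61 ± 0.24, adjusted p 1.93e-08), with its 2 probe sets at 1.94 and 4.61. It was higher still in immature thymic cells (12.30, 11.90 and 11.96) than in immature splenic cells (6.89, 6.68 and 6.88). Nrp2, a neuropilin that binds semaphorins and VEGF-C, was higher by 2.54 ± 0.28 (adjusted p 1.90e-05). Flrt3 and Dscaml1, cell surface proteins of neuronal adhesion, were higher by 1.78 and 2.56 (adjusted p 1.25e-05 and 3.65e-05), and the 4 probe sets of Dscaml1 ran from 0.09 to 2.56. They differed in the untreated spleen: Dscaml1 read 9.79, 9.02 and 9.65 there, as in thymus (9.59, 9.44 and 9.65), and Flrt3 read 4.83, 4.23 and 4.69, below the polyI:C arrays (6.57, 7.13 and 6.61). Sema6d, a semaphorin, read 11.58, 12.13 and 11.74 in thymus and 7.56, 8.27 and 7.58 after polyI:C, and its probe sets ran from 0.17 to 4.01. Itgb8, the integrin chain that activates latent TGF-beta, read 9.48, 8.63 and 8.27 in thymus and 5.13, 7.02 and 6.80 after polyI:C (difference 2.48 ± 0.55, adjusted p 0.00474).

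Other large higher genes had mature untreated spleen cells on the thymic side. Zmynd15, known as a repressor in sperm cells, read 12.71, 12.82 and 12.84 in thymus, 11.36, 11.12 and 11.37 in untreated spleen CCR7+ cells and 7.92, 6.96 and 6.81 after polyI:C. Tm4sf5, a tetraspanin-like membrane protein, read 12.43, 12.64 and 12.48, 11.17, 10.90 and 10.80 and 7.75, 7.87 and 7.61 in the same order. The polyI:C arrays were lowest of the mature groups for both genes, with differences of 5.57 ± 0.43 for Zmynd15 and 4.77 ± 0.19 for Tm4sf5 (adjusted p 8.98e-07 and 4.87e-09). Thbs4, a thrombospondin of the extracellular matrix, was instead high only in thymus CCR7+ cells among the 5 groups, at 8.83, 9.41 and 9.06 against 5.27, 5.85 and 5.71 in untreated spleen CCR7+ cells (difference from polyI:C 4.65 ± 0.23, adjusted p 1.64e-08). Among the large lower genes, Sct, which encodes secretin, and Il1rn, the natural antagonist of interleukin 1, were high only after polyI:C, at 10.20, 10.54 and 10.76 and 9.32, 10.03 and 9.99, against 6.56, 6.43 and 6.60 and 6.06, 6.09 and 6.32 in thymus. Dkk3, a secreted protein of the Dickkopf family, had a tissue pattern: it read 4.97, 5.15 and 4.55 in thymus CCR7+ cells, 8.17, 8.53 and 8.70 in untreated spleen and 9.21, 8.81 and 9.36 after polyI:C. Immature cells showed the same order (7.79, 7.32 and 7.54 in thymus and 9.95, 9.82 and 10.10 in spleen).

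Genes associated with tolerance were lower for 6 of 23 (26.1%, against 7.4% of all genes) and higher for 2 (8.7%, against 16.7%). The median was -0.17. Aldh1a2, the retinal dehydrogenase that makes retinoic acid, read 4.72, 5.07 and 5.33 in thymus, 8.69, 9.40 and 9.51 in untreated spleen CCR7+ cells and 7.84, 8.05 and 8.06 after polyI:C. Both splenic groups were high, and the difference was -2.95 ± 0.32 (adjusted p 2.13e-05), with a value of -3.12 between the immature cells. Lgals1, or galectin-1, was higher in thymus by 1.33 ± 0.28 (adjusted p 0.00294). The other higher gene was Itgb8. The count of higher genes was 4 without the third untreated spleen CCR7+ array. Of the 8 genes, those called and at least 2-fold apart numbered 4, and in all 4 untreated spleen CCR7+ cells were nearer to polyI:C than to thymus.

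In MHC class I presentation 3 of 17 genes were lower (17.6%, against 7.4% of all genes) and none higher, with a median of -0.13. H2-T24, a non-classical class I gene, had the largest of these values. It read 5.0, 4.42 and 4.78 in thymus and 6.26, 8.16 and 6.84 after polyI:C, with no overlap (difference -2.36 ± 0.35, adjusted p 0.00024). Tap2 and Tap1, the chains of the peptide transporter, differed by -1.02 ± 0.16 and -0.42 ± 0.13 (adjusted p 0.000326 and 0.0296). Tap1 lost its call without the first or the third array of either group. In MHC class II presentation 1 of 16 genes was higher and 2 were lower (6.25% and 12.5%, against 16.7% and 7.4% of all genes). H2-Ab1, a class II beta chain, differed by 0.79 ± 0.16 and Lgmn, the protease legumain, by -1.57 ± 0.28 (adjusted p 0.00237 and 0.00114). The second lower gene, Marchf1, lost its call without any of the 3 thymus CCR7+ arrays, and H2-Ab1 was joined by further higher genes without the third thymus CCR7+ array (2 higher) or the second polyI:C array (3 higher). Among respiratory chain genes 5 of 26 were higher (19.2%, near the 16.7% of all genes) and none lower, with a median of 0.38. Leaving out the first untreated spleen CCR7+ array raised the count to 9, and leaving out probe sets that can match several transcripts lowered it to 2. Ndufv1, a complex I subunit, read 9.54, 9.84 and 9.60 in thymus and 8.12, 8.54 and 7.83 after polyI:C (difference 1.49 ± 0.18, adjusted p 5.42e-05). Cell cycle genes were called for 2 of 28, Ccne1 lower and Mki67, a marker of dividing cells, higher. These were 3.57% in each direction, against 16.7% of all genes higher and 7.4% lower. Mki67 (1.75, adjusted p 0.0352) lost its call without the second or the third thymus CCR7+ array or the first or the third polyI:C array. Ccne1, or cyclin E1, was high after polyI:C (10.01, 10.85 and 10.87) and differed by -3.15 ± 0.29 (adjusted p 4.28e-06). In cholesterol handling, Scarb1, a lipoprotein receptor, differed by -2.56, and Abca1, a cholesterol exporter, and Lpl, lipoprotein lipase, by 1.64 and 1.93 (adjusted p 8.57e-05, 0.00379 and 0.00593). The list held 5 higher and 2 lower of 11 (45.5% and 18.2%, against 16.7% and 7.4% of all genes). It held 2 or 3 higher without the first or second thymus CCR7+ array or the first or the third polyI:C array. In the BCL2 family and death receptors 6 of 20 were lower (30%, against 7.4% of all genes) and 1 higher (5%, against 16.7%). Bcl2l14, Daxx and Tnfsf10, which encodes TRAIL, were lower, at -1.33, -1.49 and -1.02. The other lists held 1 to 5 calls in each direction, where 16.7% of all genes were higher and 7.4% lower. NF-kB subunits and regulators had 2 higher and 3 lower of 21. The higher count was 0 without the third thymus CCR7+ array or the second polyI:C array and 1 without the first or second thymus CCR7+ array or the third polyI:C array. The lower count was 0 without the third polyI:C array and 1 without the first or second thymus CCR7+ array or the first polyI:C array. SOCS and cytokine signalling had 5 higher and 5 lower of 32. Of these, 2 were higher without the second or the third thymus CCR7+ array or the first polyI:C array and 3 without the third polyI:C array, and 3 were lower without the second thymus CCR7+ array. Glycolysis had 3 higher and 1 lower of 17, with 1 higher without any thymus CCR7+ array or the third polyI:C array and 0 lower without the first or second thymus CCR7+ array. Integrin subunits had 1 and 1 of 16, and the lower count was 0 without the second or the third thymus CCR7+ array or the third polyI:C array and 2 without the first untreated spleen CCR7+ array. Sterol synthesis had 1 and 1 of 20, and the lower count was 3 without the first thymus CCR7+ array and 2 without the second array of either CCR7- group or the first untreated spleen CCR7+ array. Chaperones of the endoplasmic reticulum had 2 and 2 of 20, and at most 1 of each was called without any single thymus CCR7+, polyI:C or spleen CCR7- array or the third thymus CCR7- array. Their lower count was also 1 without the first thymus CCR7- array or the third untreated spleen CCR7+ array. Egr1, an immediate-early transcription factor, was higher in thymus by 2.28 ± 0.23 (adjusted p 8.73e-06). Of 26 immediate-early and stress genes 6 were called higher (23.1%, against 16.7% of all genes). That count fell to 1 to 3 when any of the thymus CCR7+ or polyI:C arrays was left out. It fell to 2 or 3 without the first or second thymus CCR7- array or any spleen CCR7- array.

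**Figure D4:**
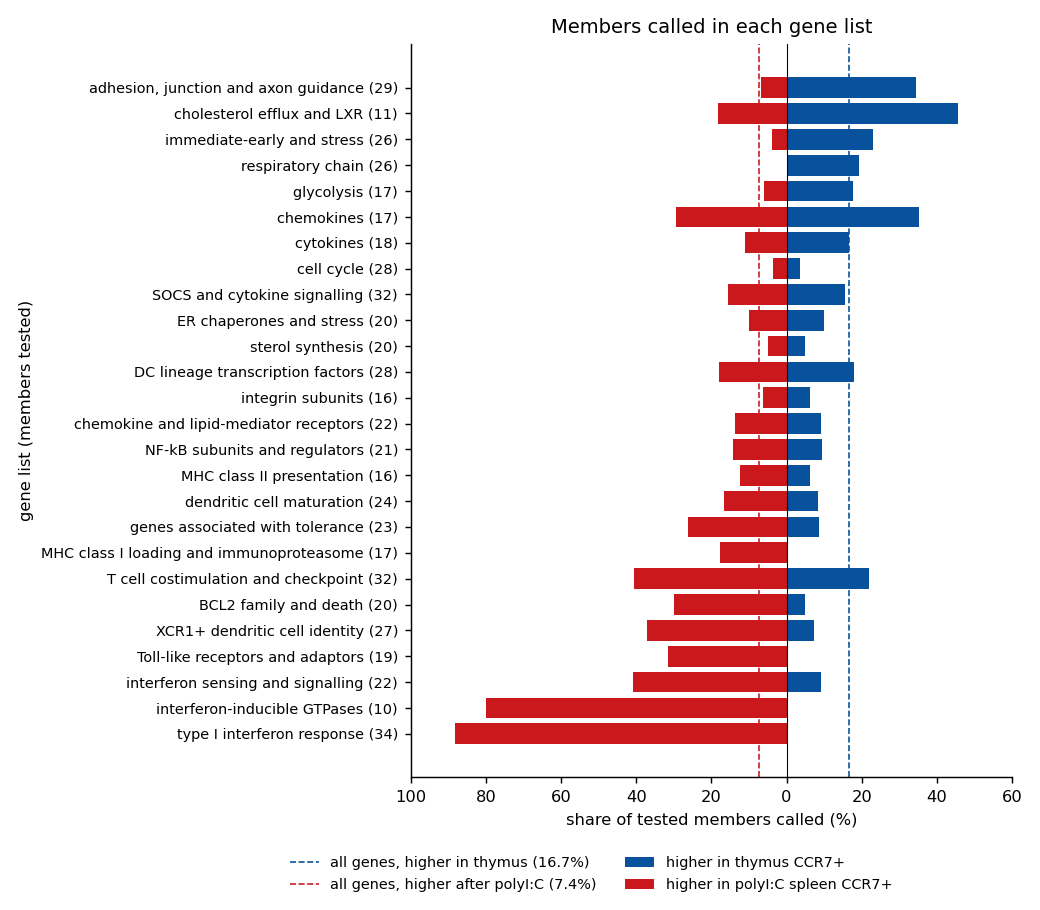
Share of the tested members of each of 26 gene lists called higher in thymus CCR7+ cells (blue, to the right) or lower (red, to the left), in percent, with the number of members tested in brackets; dashed lines give the shares over all genes, 16.7% higher and 7.4% lower. The type I interferon response, at 88.2% lower, and the interferon-inducible GTPases reach furthest to the left.

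A part of the T lineage transcripts was high in the thymus CCR7+ arrays. Rag1, the recombinase of developing lymphocytes, read 8.81, 10.07 and 8.49 in thymus CCR7+ cells, 5.96, 7.39 and 5.45 in thymus CCR7- cells and 2.63, 2.53 and 2.98 after polyI:C. The second array was highest in both thymic groups, and the difference was 6.41 ± 0.44 (adjusted p 2.79e-07). The polyI:C readings lay under the filter level of 4.39, where they cannot be told from background, so the size of this difference and its place among the largest rest on such readings. Bcl11b, a T lineage transcription factor, was higher by 4.35 ± 0.46 and Cd3g, a chain of the T cell receptor complex, by 3.79 ± 0.46 (adjusted p 1.45e-05 and 5.33e-05). The second thymus CCR7+ array was again highest, at 10.72 for Bcl11b and 9.83 for Cd3g. The 4 probe sets of Bcl11b ran from 1.59 to 4.35. Trbv1, a T cell receptor beta segment, was higher by 4.68 ± 0.43 in 1 probe set, while the other gave -0.09.

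Of 14 tested markers of thymocytes and T cells 9 were higher (64.3%, against 16.7% of all genes) and 1 lower (7.14%, against 7.4%), with a median of 1.45. In the immature cells 3 of the 14 were higher in thymus, where 4.92% of all genes were. The lower gene, Cd8b1, lost its call without the first thymus CCR7+ array. Cd3e, Cd4, Ptcra and Zap70 were not called. Cd3e read 4.95, 5.61 and 5.21 in thymus CCR7+ cells and 5.41, 4.82 and 5.03 after polyI:C, Cd4 5.81 in all thymus CCR7+ arrays and 5.85 to 5.94 after polyI:C, and Rag2 was below the filter. The signal summed over the list ran from 11.13 to 12.39 (log2) in thymus CCR7+, from 9.76 to 10.62 in thymus CCR7-, from 9.68 to 9.73 in untreated spleen CCR7+ and from 9.96 to 10.15 in polyI:C arrays, so the thymus CCR7- arrays overlapped the polyI:C arrays. The part of these transcripts in the other differences was not tested.

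**Figure D5:**
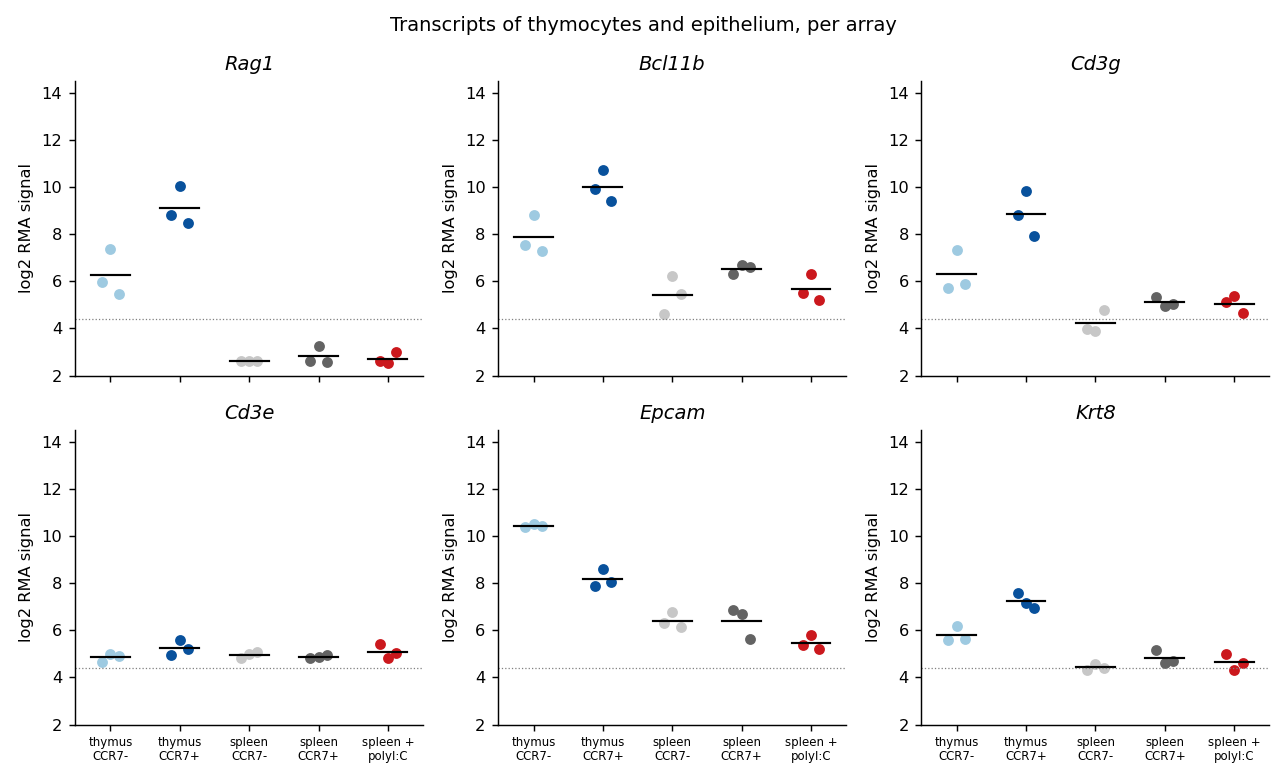
Log2 RMA signal of 4 T lineage and 2 epithelial transcripts in each array, with 3 points and a line at the mean for each of the 5 groups; the dotted line marks the filter level of 4.39. Rag1, Bcl11b and Cd3g are highest in thymus CCR7+ cells, Cd3e is near 5 in every group, and Epcam is highest in thymus CCR7- cells.

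Epithelial and B cell transcripts were also looked at. Epcam, an adhesion molecule of epithelium that dendritic cells can also carry, read 7.86, 8.58 and 8.06 in thymus CCR7+ cells and 5.39, 5.82 and 5.19 after polyI:C (difference 2.70 ± 0.29, adjusted p 1.97e-05). It was higher in thymus CCR7- cells (10.38, 10.52 and 10.43), and a second probe set of the gene gave -0.17. Krt8, a keratin, was higher by 2.60 ± 0.23 (adjusted p 2.71e-06) and Fezf2 by 0.58. Aire (0.10 ± 0.16), Foxn1 (-0.25 ± 0.19), Krt5 and Prss16, defining genes of thymic epithelium, were not called. Summed over the 10 markers of this list with a probe set, 7 of them tested, the signal ran from 9.26 to 9.54 in thymus CCR7+ arrays. It ran from 10.61 to 10.78 in thymus CCR7- and from 7.98 to 8.15 in polyI:C arrays. Igha, the constant region of IgA, read 9.40, 10.98 and 9.27 in thymus CCR7+ cells, 9.17, 11.21 and 10.63 in untreated spleen CCR7+ cells and 5.31, 5.80 and 5.52 after polyI:C (difference 4.34 ± 0.85, adjusted p 0.00205). The second array was highest in both untreated groups. Of 10 B cell markers, 2 were higher (20%, against 16.7% of all genes) and none lower. The higher count was 0 without the second thymus CCR7+ or the third polyI:C array. It was 4 without the third thymus CCR7+ array and 5 with the replicate number as a block. Ms4a1, which encodes CD20, was not called (-0.69 ± 0.50, adjusted p 0.339). The part of these cells in the differences was not tested. Gzmb, or granzyme B, a marker of natural killer cells, was lower in thymus (-2.05 ± 0.39, adjusted p 0.00149) and read 7.47, 6.04 and 5.34 after polyI:C.

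Immature cells of the same tissues give the tissue difference without polyI:C and share no array with the mature contrast, although both use the same pooled spread. Of the 13629 genes, 671 were higher in thymus CCR7- than in spleen CCR7- cells (4.92%) and 441 lower (3.24%), 8.16% in all. With the replicate number as a block the immature counts were 706 higher and 495 lower. Of the 2279 genes higher in mature thymic cells, 196 were also higher in immature thymic cells (8.6% of the mature and 29.2% of the immature list), and 52 were lower there. Of the 1009 lower genes 142 were also lower in immature thymic cells (14.1% and 32.2%) and 88 were higher there. Cldn1, Ccl17, Ccl22, Zmynd15 and Tm4sf5 were higher in thymus in both comparisons, as was Thbs4 (0.79 in immature cells, adjusted p 0.0471), and Dkk3, Aldh1a2, Cadm1 and Cd8a lower in both. Ifit2, Irf7 and Rsad2 were higher in immature thymic cells and lower in mature thymic than in polyI:C cells. Cdh2, Prdm1 and Slamf1 were called in the mature cells and not in the immature ones, where they differed by -0.43, 0.29 and 0.29; the change from one comparison to the other was not tested.

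Mature cells of untreated spleen were not in the contrast, although their arrays entered the filter, the choice of probe set and the pooled spread. Without the first of these arrays 2600 genes were called higher and 1178 lower. Their means show to which side a gene's splenic level without polyI:C lay. For the 1090 genes at least 2-fold higher in thymus, the mean of untreated spleen CCR7+ cells was nearer to thymus for 622 (57.1%) and nearer to polyI:C for 468, against 50.5% nearer to thymus over all genes tested. For the 404 genes at least 2-fold lower, it was nearer to thymus for 296 (73.3%) and nearer to polyI:C for 108. Cdh2, Il12b, Ccl22 and Jag1 were among the genes nearer to thymus, with the type I interferon genes. Ccl17, Rag1, Cldn1, Slamf1 and Thbs4 among the higher genes and Aldh1a2, Dkk3 and Cxcl9 among the lower were nearer to polyI:C spleen. When single arrays were left out, the count for the higher genes ranged from 467 (of 879) to 858 (of 1370). That for the lower genes ranged from 251 (of 340) to 325 (of 418). Without the second untreated spleen CCR7+ array, 537 of 1115 higher genes were nearer to thymus, so most were then nearer to polyI:C. Most were nearer to polyI:C also under a test against a 2-fold change, where 67 of 147 were nearer to thymus.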

How the data were processed

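Sorted mouse dendritic cells were measured on 15 Affymetrix Mouse Genome arrays. The deposited values are log2 signals that the authors made with RMA and the affy package, per the submitters' processing notes; the sources used here give no versions and do not say which arrays were normalised together. Of 45101 probe sets, 34958 carried 1 gene symbol in the platform annotation, 932 several and 9211 were not listed. The brightest probe set of each of 18194 genes was kept, and 13629 genes were tested, those with 3 or more arrays above 4.39, the 40th percentile of the table. A model of 5 group means was fitted to all 15 arrays with limma 3.58.1 in R 4.3.3 (eBayes, 10 residual and 4.01 prior degrees of freedom), p-values were adjusted by Benjamini-Hochberg over all genes tested, and the fit was tested on simulated data. Of 767 entries in 35 gene lists, 695 had a probe set. Lists are described by counts and medians, without a test of their own.

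The groups, lists and alternatives were chosen with earlier results of these data known. The genes named are the 15 largest higher and 15 largest lower called genes that were at least 2-fold apart with no overlapping arrays, up to 4 called members of each list in each direction, the markers and the sorting transcripts; others named were chosen after their values were seen. For the immature cells, arrays with the same replicate number deviated together (correlations 0.57, 0.52 and 0.56 across genes), although the labels do not say what the number marks; for the mature comparison 2 of 3 pairs did (-0.02, 0.34 and 0.38), which is not taken as pairing. The alternatives were other filters, other probe set rules, repeated quantile normalisation, centring, trend and robust settings, array weights, a block for the replicate number, a fit without the other groups, a 2-fold change as the null, and leaving out each array. Array number limits the precision, and no depth applies to arrays.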

Additional observations from a re-analysis of the deposited data

How the results depend on the processing

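Of 270 recomputed counts of calls, 256 stayed within 1.5 times the value reported. When single arrays were left out, the genes higher in thymus numbered 1525 to 2600 and those lower 715 to 1178, with 879 to 1370 at least 2-fold higher and 340 to 418 at least 2-fold lower; in immature cells 448 to 780 were higher and 295 to 542 lower, with 327 to 432 and 222 to 272 at least 2-fold apart. The lowest mature counts came without the second thymus CCR7+ array (all calls), the third polyI:C array (2-fold higher) and the second polyI:C array (2-fold lower). A test against a 2-fold change left 147 higher and 99 lower genes, 82 and 46 in immature cells, and of the mature ones 67 and 80 had untreated spleen CCR7+ cells nearer to thymus. Averaging probe sets gave 700 genes at least 2-fold higher, 388 of them nearer to thymus. Array weights gave 1142 higher and 846 lower genes in immature cells. The share of calls that were higher was 69.3%, 62.2% after repeated quantile normalisation and 72.8% after centring. Of 155 named called genes, 53 lost their call without some single array, 39 under another setting apart from the 2-fold test and 100 under that test. Differences reversed for Ifnar2 (-0.12 with the mean of probe sets, -1.07 with the probe set of largest variance), Atp5c1 (-0.23 with that probe set and without the _s_at, _x_at and _a_at probe sets), and, without the latter, Trbv1 (-0.09) and Bmf (-0.09); these alternatives exchange the probe set. In the mature comparison arrays of equal replicate number correlated at -0.02, 0.34 and 0.38, with 2 of 3 thymus arrays closest to their own number. Whether the numbers pair these arrays is not settled, as the labels do not say what they mark. With the replicate block 2337 genes were higher and 1014 lower, and Cmklr1, Tnfaip2 and Herpud1 lost their calls. Of 770 recomputed list counts under settings that keep all arrays, 678 stayed within 1.5 times, and of 1050 with an array left out, 883 did. Signals near background or the top of the scale give compressed differences.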

Other observations

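Some gene families that no list held were looked at by symbol after their values were seen, and they get counts only. The mitochondrial ribosomal proteins, which build the ribosome inside mitochondria, were higher in mature thymic cells for 35 of 76 (46.1%, against 16.7% of all genes) and lower for 3, with a median difference of 0.57, and 70 of 76 differences were above 0. The sizes were small: none passed the test against a 2-fold change. Mrpl24 read 10.93, 11.13 and 11.13 in thymus CCR7+ cells and 9.42, 10.00 and 9.84 after polyI:C, a difference of 1.31 ± 0.16 with no overlap. Mrps26 was higher by 1.38 ± 0.16. The count was 24 after repeated quantile normalisation and 39 after centring, 21 without the second thymus CCR7+ array and 22 without the third polyI:C array. Of 46 ribosomal proteins of the cytosol, 2 were higher and none lower, with a median of 0.15.

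Among the Gimap genes, GTPases known from lymphocytes, Gimap4 read 8.10, 8.92 and 8.03 in thymus CCR7+ cells. After polyI:C it read 6.40, 6.81 and 5.03 (difference 2.27 ± 0.46). Gimap9 averaged 5.35 in thymus CCR7+ cells, with all arrays above the filter level. Its means in all other groups were under that level, so no count is given for these genes. The second thymus CCR7+ array, highest for Gimap4, also had the highest T lineage signal, and the part of that signal was not tested. The Slfn family, which holds many interferon-induced genes, was lower in thymus for 5 of 8 (against 7.4% of all genes), with a median of -1.38. Slfn3 differed by -2.67 ± 0.32. Of the Ms4a4 and Ms4a6 genes, membrane proteins related to CD20, Ms4a4c differed by -3.12 ± 0.53. Ms4a4d averaged 2.92 in thymus CCR7+ cells and 6.73 after polyI:C. Its means in the 4 other groups were under the filter level. It passed the filter only through the polyI:C arrays, so no count is given for these genes. Of the interferon alpha genes, Ifna2 averaged 3.88 in thymus and 6.16 after polyI:C. Ifna2 and Ifna4 had means under the filter level of 4.39 in the 4 other groups and passed it only through the polyI:C arrays, so no count is given; these genes are near-identical copies, and their probe sets may share signal. Of the Snhg genes, hosts of small nucleolar RNAs, 3 of 12 were higher in thymus (25%, near the 16.7% of all genes), with Snhg16 at 3.67 ± 0.34 and Snhg12 at 3.39 ± 0.32. Dsg2 and Dsp, of the desmosome, were higher by 3.24 ± 0.24 and 2.32 ± 0.18. Dsp averaged 5.92 in thymus CCR7+ cells, and its means in all other groups were under the filter level. The size of its difference thus rests on readings that cannot be told from background. Dsc2, Jup, Pkp1, Pkp3 and Pkp4 were not called.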
